A study of Mus musculus with 26 samples.

Results

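The miRNAs described here are mmu-mir-219a-1, mmu-mir-219a-2 and mmu-mir-338, which were chosen by name as the 3 entries of these names among the 1054 miRNA entries of the table. They were followed over 26 small RNA libraries of the mouse hippocampus. All libraries were made from male C57BL/6J mice of 2 to 3 months, with both hemispheres taken. Control mice stayed in their homecage, and acute stress (AS) was a forced swim of 6 min in water of 18 °C, with tissue taken 45 mins after its start. The dorsal (dHC) and ventral (vHC) hippocampus were dissected apart, which gave 14 vHC libraries (8 from control mice and 6 after swim) and 12 dHC libraries (6 from control mice and 6 after swim). The labels also sort the libraries into 3 dated blocks. Block 1 held 4 libraries of control vHC, and every other group had 2 libraries in each block. Library numbers run in consecutive vHC and dHC pairs of the same condition and block, 12 in all, with 2 control vHC libraries left over. The labels do not say that such a pair is 1 mouse, so libraries were not paired in the tests unless stated. The p-values rest on the spread between these libraries.

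A miRNA is cut from a hairpin precursor and guides silencing proteins to mRNAs that pair with its seed, the bases 2 to 8 of its mature strand. Mouse miR-219a and miR-338 are known as abundant miRNAs of myelinating oligodendrocytes, where they repress factors that keep precursor cells from maturing. The hippocampus holds these cells among neurons, astrocytes, microglia and vessels. In bulk tissue, fewer cells of a type and less RNA per cell cannot be told apart. The 3 miRNAs were themselves the only oligodendrocyte markers on the lists used, so that their cell of origin was not tested.

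The mature strands are shown because both copies of miR-219a share one of them. RefSeq (GRCm38.p6) matched all 3 entries, and the seed is in capitals.
mmu-miR-219a-5p: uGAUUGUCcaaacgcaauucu
mmu-miR-219a-1-3p: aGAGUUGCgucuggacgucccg
mmu-miR-338-3p: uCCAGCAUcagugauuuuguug
mmu-miR-338-5p: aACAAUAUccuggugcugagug
No other of the 1679 mature mouse miRNAs in the RefSeq table had any of these seeds. The strand mmu-miR-219a-5p is made by both copies, whereas mmu-miR-219a-1-3p was found whole in the hairpin of 1 copy. The hairpins of both copies are given next, with the mature strands that RefSeq lists in capitals. For mmu-mir-219a-2 RefSeq lists the 5p strand alone, which does not show that its other arm gives no miRNA.
mmu-mir-219a-1: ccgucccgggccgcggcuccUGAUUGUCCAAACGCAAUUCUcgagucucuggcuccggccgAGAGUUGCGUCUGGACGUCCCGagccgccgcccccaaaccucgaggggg
mmu-mir-219a-2: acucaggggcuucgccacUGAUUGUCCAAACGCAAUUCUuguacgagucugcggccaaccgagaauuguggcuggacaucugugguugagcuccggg
The longest stretch shared by both hairpins was 22 bases long and held the whole 5p strand of 21 bases with 1 base before it.

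On GRCm38, mmu-mir-219a-1 lies on the minus strand at chr17:34024983-34025092. It overlaps an exon of the lincRNA Gm26940 on the same strand, and its nearest coding gene is Ring1, 303 bases away. The second copy, mmu-mir-219a-2, lies on the minus strand at chr2:29845631-29845727, between genes and 629 bases from Urm1. The hairpin mmu-mir-338 lies on the minus strand at chr11:120014765-120014862, in an intron of Aatk, which is transcribed from the same strand and codes for a kinase. Each of the 3 has a miRNA annotated on the opposite strand, which is mmu-mir-219c for the first copy, mmu-mir-219b for the second and mmu-mir-3065 for mmu-mir-338.

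The copies of miR-219a differed widely in count. Over all libraries mmu-mir-338 had 167241 counts and mmu-mir-219a-2 had 161812, which placed them at ranks 86 and 89 of 1054 entries by total count. The other copy, mmu-mir-219a-1, had 2401 counts and rank 293. These counts are not divided by length, and the hairpins are 110, 97 and 98 bases long. The total miRNA count per library, the depth, was between 465387 and 4819724, with the lowest in control dHC library 24, and 463 entries passed the filter on low counts, the 3 described here among them.

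Within a library, the count of mmu-mir-219a-1 was between 0.436% and 2.23% of that of mmu-mir-219a-2, with a median of 1.35%. The table does not separate the arms of a hairpin, and how reads that match both copies were divided is not given in the sources used here. The deposited counts were not all whole. The counts of both copies ended in the same fraction in 26 of 26 libraries, which was 0.5 in 10 libraries, with whole counts in the other 16, while mmu-mir-338 had whole counts in 26. If shared reads were divided equally, each copy would hold the same number of them, and at least 97.8% of the count of mmu-mir-219a-2 in any library would then lie beyond the shared part. Single copy levels remain uncertain for this reason.

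The miRNAs of the opposite strands were near the limit of detection. Counts per library reached 3 for mmu-mir-219b, 6 for mmu-mir-219c and 2 for mmu-mir-3065, with totals of 16, 42 and 11, and none of them passed the filter.

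The question of the study was which molecular changes follow AS in dHC and vHC, and the comparison of regions shows where the 3 miRNAs differed at rest. All 3 were higher in dHC than in vHC, both in control mice and after swim. Levels are given as normalized CPM, in which the counts of a library are scaled to a common total of miRNA counts by the TMM method.

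For mmu-mir-219a-1, the lowest, median and highest levels were 9.23, 21.7 and 29.5 CPM in control vHC and 35.5, 41.7 and 58.6 in control dHC. After swim they were 10.2, 24.4 and 33.3 CPM in vHC and 28.1, 54.1 and 61.5 in dHC. The regions did not overlap in control mice, whereas after swim the lowest dHC libraries, 1 of block 1 and 1 of block 2, lay within the range of vHC. Overlap is described here and below without the share of all entries tested that separate by region, so it does not show whether separation is unusual. The log2 difference of dHC minus vHC was 0.99 in control mice (SE 0.22, adjusted p = 0.00118, edgeR quasi-likelihood test with block) and 0.97 after swim (SE 0.24, adjusted p = 0.00342).

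For mmu-mir-219a-2, levels in control vHC were 1548, 2114 and 2406 CPM at the lowest, median and highest, and 2017, 2954 and 3585 in control dHC. After swim the values were 1640, 1854 and 2182 CPM in vHC and 2226, 2909 and 4257 in dHC. Here the regions overlapped in control mice through 1 dHC library of block 1, and did not overlap after swim. The log2 difference by edgeR was 0.47 in control mice (SE 0.13, adjusted p = 0.00622) and 0.70 after swim (SE 0.13, adjusted p = 0.000399).

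For mmu-mir-338, levels in control vHC were 1619, 1923 and 2563 CPM at the lowest, median and highest, and 2268, 2961 and 3984 in control dHC. After swim they were 1756, 2233 and 2498 CPM in vHC and 2323, 2703 and 3392 in dHC. The regions overlapped in both conditions. The log2 difference by edgeR was 0.50 in control mice (SE 0.095, adjusted p = 0.000244) and 0.36 after swim (SE 0.10, adjusted p = 0.0116).

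**Figure D1:**
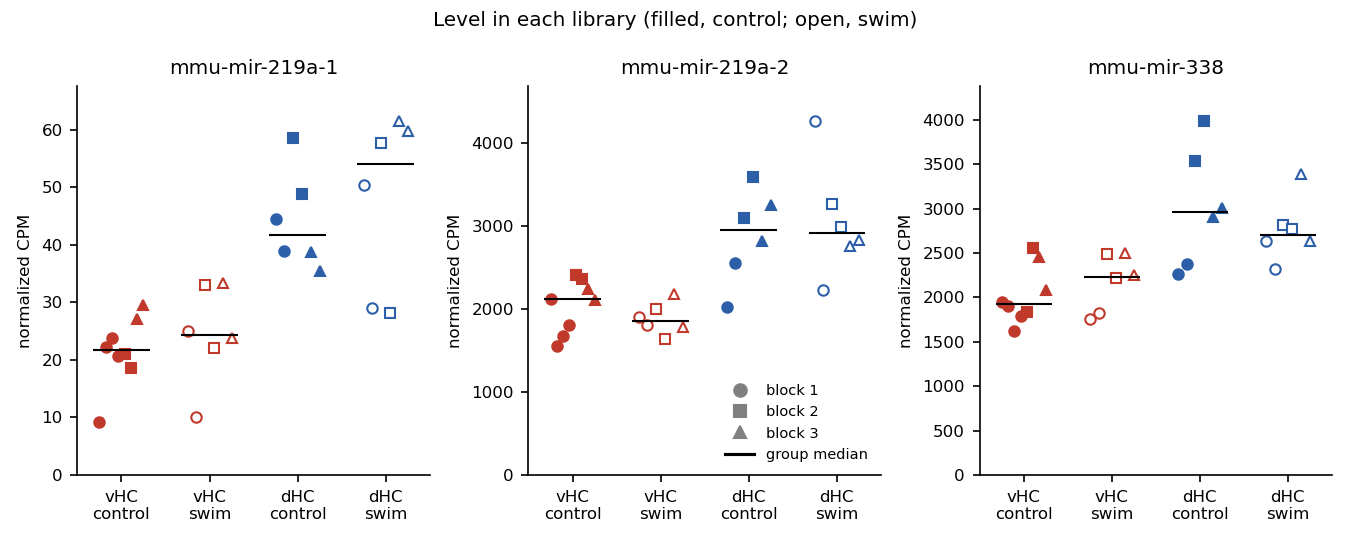
Normalized CPM (linear axis from 0) of mmu-mir-219a-1, mmu-mir-219a-2 and mmu-mir-338 in each of the 26 libraries by group, with shapes for blocks, filled points for control, open points for swim and a bar at the group median. The medians of the dHC groups lie above those of the vHC groups in each panel, at 41.7 and 54.1 CPM against 21.7 and 24.4 for mmu-mir-219a-1. Single libraries of the regions overlap in each panel in at least 1 condition.

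Thus 3 of 3 entries were called higher in dHC in both comparisons, where 7.78% of the 463 entries tested were called higher in control mice and 7.56% after swim. The median log2 difference of the 3 was 0.50 in control mice and 0.70 after swim, and that of all entries tested was 0.01 and -0.00015. By size of the difference, mmu-mir-219a-1 ranked 6 from the top of 463 in control mice and 3 after swim. The ranks of mmu-mir-219a-2 were 57 and 20, and those of mmu-mir-338 were 51 and 79.

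The direction held in each block. In control mice the log2 difference of dHC minus vHC within blocks 1, 2 and 3 was 1.18, 1.40 and 0.38 for mmu-mir-219a-1. It was 0.35, 0.48 and 0.47 for mmu-mir-219a-2 and 0.36, 0.79 and 0.39 for mmu-mir-338. After swim the same differences were 1.22, 0.56 and 1.08 for mmu-mir-219a-1, 0.73, 0.78 and 0.51 for mmu-mir-219a-2 and 0.47, 0.25 and 0.34 for mmu-mir-338. With 2 libraries per group in most blocks, these values were not tested.

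In each pair of consecutive library numbers the direction was the same, for each of the 3 miRNAs in 6 of 6 pairs of control mice and 6 of 6 after swim. Blocks and pairs regroup the libraries already tested above, so they are not separate evidence. The share of all entries with the same direction in every block or pair is not given, so these counts do not show whether this is unusual. Within these pairs the log2 difference of dHC minus vHC ranged from 0.26 to 1.45 for mmu-mir-219a-1, from 0.31 to 1.16 for mmu-mir-219a-2 and from 0.18 to 0.95 for mmu-mir-338. With the pairs in the edgeR model in place of block, a fit chosen after seeing the data, the differences in control mice were 0.90, 0.47 and 0.50 for mmu-mir-219a-1, mmu-mir-219a-2 and mmu-mir-338, with adjusted p of 0.00117, 0.00176 and 0.000504. After swim they were 0.97, 0.67 and 0.35, with adjusted p of 0.00055, 7.41e-05 and 0.0108. This fit called 7.13% of the entries higher in dHC in control mice and 10.6% after swim.

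Without the shallow control dHC library 24, the log2 differences in control mice were 0.9997, 0.44 and 0.46 for mmu-mir-219a-1, mmu-mir-219a-2 and mmu-mir-338, with adjusted p of 0.000982, 0.0173 and 0.000982 by edgeR. With the counts of both copies summed, miR-219a differed by 0.48 in control mice (adjusted p = 0.00482, edgeR) and by 0.70 after swim (adjusted p = 0.000323). The result changed with the way technical variation was modelled. With 2 surrogate variables in place of block, which are vectors of unwanted variation estimated from all entries, 0 of the 3 were called in either comparison, where 4.32% of the entries were called higher in dHC in control mice and 3.02% after swim. One of these vectors shared 91.1% of its variance with region, the median difference of all entries moved to -0.22 in control mice and -0.19 after swim, and the median SE was 0.43 and 0.42 in place of 0.16 and 0.17. In that fit, edgeR gave mmu-mir-219a-1 a log2 difference of -0.83 (SE 0.64, adjusted p = 0.396) in control mice and -0.81 (SE 0.61, adjusted p = 0.391) after swim.

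**Figure D2:**
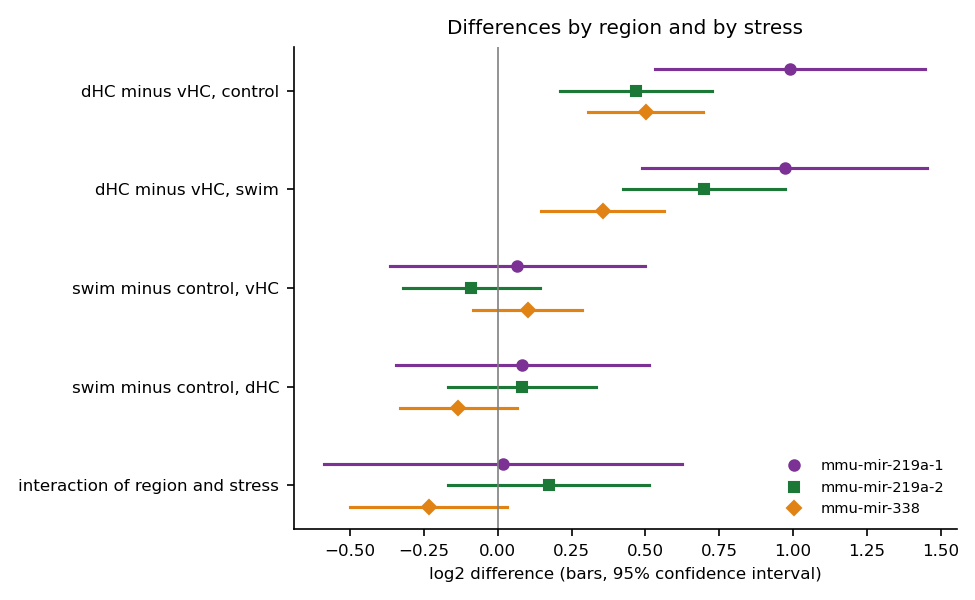
Log2 differences (horizontal axis) of mmu-mir-219a-1, mmu-mir-219a-2 and mmu-mir-338 for region, stress and their interaction, with bars for the 95% confidence interval of the edgeR fit. The intervals of the 6 region differences lie above 0, from 0.15 at the lowest bound, and those of the stress differences and the interaction include 0.

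AS did not change the 3 miRNAs detectably at 45 mins. The largest stress difference of the 3 in size was that of mmu-mir-338 in dHC, a log2 difference of -0.13 (SE 0.096, 95% confidence interval -0.33 to 0.064). In vHC, swim minus control was 0.07 (SE 0.21) for mmu-mir-219a-1, -0.09 (SE 0.11) for mmu-mir-219a-2 and 0.10 (SE 0.089) for mmu-mir-338. In dHC it was 0.08 (SE 0.21) for mmu-mir-219a-1 and 0.08 (SE 0.12) for mmu-mir-219a-2. As the levels above show, control and swim libraries overlapped in each region for each of the 3.

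The study's own test drops stress and its interaction with region together, with 2 surrogate variables in the model. It was rebuilt here on the miRNA entries alone, with a filter and a null model that the paper's methods do not state. By this edgeR test the adjusted p was 0.950 for mmu-mir-219a-1, 0.883 for mmu-mir-219a-2 and 0.793 for mmu-mir-338. It called 0% of the 463 entries, and 0% were also called for stress in vHC, for stress in dHC and for the interaction. An unadjusted p under 0.05 was reached by 16 entries in the joint test, 34 in vHC, 17 in dHC and 23 in the interaction, and none of the 3 was among them. By DESeq2, 0 entries were called in these 4 tests as well. The confidence intervals limit what could have been missed: in vHC they ran from -0.37 to 0.50 for mmu-mir-219a-1, from -0.32 to 0.14 for mmu-mir-219a-2 and from -0.083 to 0.28 for mmu-mir-338. In dHC they ran from -0.35 to 0.51 for mmu-mir-219a-1 and from -0.17 to 0.33 for mmu-mir-219a-2.

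The stress difference was not shown to vary by region. The interaction, dHC minus vHC of the stress difference, was 0.02 (SE 0.30) for mmu-mir-219a-1, 0.17 (SE 0.17) for mmu-mir-219a-2 and -0.23 (SE 0.13) for mmu-mir-338. The last had an unadjusted p of 0.0830 and an adjusted p of 0.954 by edgeR.

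The blocks differed for mmu-mir-338. Its lowest, median and highest levels were 1619, 1923 and 2634 CPM in block 1, 1831, 2665 and 3984 in block 2, and 2085, 2568 and 3392 in block 3. Block 2 exceeded block 1 by a log2 difference of 0.38 (SE 0.084, adjusted p = 0.000513, edgeR) and block 3 exceeded block 1 by 0.33 (SE 0.084, adjusted p = 0.00187). Block 3 minus block 2 was -0.05 (SE 0.088, adjusted p = 0.922). Many entries differed in the same way, since 22.7% of all entries were called higher in block 2 and 22% higher in block 3 than in block 1.

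For mmu-mir-219a-1 the block medians were 24.4, 30.6 and 34.4 CPM in blocks 1, 2 and 3, and for mmu-mir-219a-2 they were 1962, 2696 and 2500 CPM. With the 3 blocks tested together, the adjusted p by edgeR was 0.141 for mmu-mir-219a-1, 0.157 for mmu-mir-219a-2 and 0.000642 for mmu-mir-338, where 53.1% of entries were called. Both copies of miR-219a passed this test under some other settings, for example with adjusted p of 0.0470 and 0.0312 by edgeR with DESeq2 size factors. Under others they did not. The adjusted p by edgeR was 0.256 for mmu-mir-219a-1 with library sizes over the whole table and 0.243 for mmu-mir-219a-2 without the filter on low counts.

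Ratios of counts within a library do not depend on depth or scaling, and were used to compare the miRNAs with each other. The count of mmu-mir-338 over that of mmu-mir-219a-2 had group medians close to 1, at 0.991 in control vHC, 1.19 in swim vHC, 1.07 in control dHC and 0.929 in swim dHC. Over all libraries it ranged from 0.619 to 1.35. The mature strands of these hairpins have different seeds, and the near equality is one of counts.

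The count of mmu-mir-219a-2 over that of mmu-mir-219a-1 had medians of 85.0 in control vHC, 74.5 in swim vHC, 68.9 in control dHC and 66.9 in swim dHC. Its range over all libraries was 44.9 to 230, and the highest value belonged to control vHC library 1, with 16 counts of mmu-mir-219a-1. Few counts stood behind such values. The coefficient of variation of mmu-mir-219a-1 within groups was 19.2% to 34.7%, and counting alone gives 10.5% to 15.5%.

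The region difference appeared larger for mmu-mir-219a-1 than for the other 2, but the tests of this did not pass. The mean log2 ratio of mmu-mir-219a-1 over mmu-mir-219a-2 was -6.01 (SD 0.36, n = 6) in control dHC and -6.59 (SD 0.59, n = 8) in control vHC, with an exact permutation p of 0.0470, adjusted p = 0.188 over the 12 ratio tests. After swim the means were -6.04 (SD 0.49, n = 6) in dHC and -6.34 (SD 0.56, n = 6) in vHC, with an exact permutation p of 0.387, adjusted p = 0.618. This difference of 0.30 after swim was 0.077 without swim vHC library 15, the lowest of its group. It was 0.19 without swim dHC library 28 and 0.43 without swim dHC library 22. The log2 ratio of mmu-mir-338 over mmu-mir-219a-1 was lower in dHC by a difference of -0.51 in control mice (exact permutation p = 0.0450, adjusted p = 0.188) and -0.62 after swim (exact permutation p = 0.0455, adjusted p = 0.188). That of mmu-mir-338 over mmu-mir-219a-2 differed between regions by 0.065 in control mice (exact permutation p = 0.532, adjusted p = 0.638) and -0.32 after swim (exact permutation p = 0.0649, adjusted p = 0.195). Over the pairs of consecutive library numbers, the ratio of mmu-mir-338 over mmu-mir-219a-1 was lower in dHC in 5 of 6 pairs of control mice (exact sign-flip permutation p = 0.0625) and in 6 of 6 after swim (exact sign-flip permutation p = 0.0312, the smallest that 6 pairs allow), with adjusted p = 0.188 for both over the 6 tests of pairs, none of which passed.

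Stress did not move the ratios past the threshold either. The difference of swim minus control nearest to it was that of mmu-mir-338 over mmu-mir-219a-2 in vHC, 0.20 on the log2 scale (exact permutation p = 0.0932, adjusted p = 0.224). The same ratio differed by -0.18 in dHC (exact permutation p = 0.260, adjusted p = 0.519), and by -0.071 without swim dHC library 6. That of mmu-mir-219a-1 over mmu-mir-219a-2 differed by 0.25 in vHC (exact permutation p = 0.439, adjusted p = 0.618). This difference was 0.080 without control vHC library 1 and 0.47 without swim vHC library 15. In dHC the ratio of both copies differed by -0.026 (exact permutation p = 0.922, adjusted p = 0.922). All tests of ratios were two-sided.

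**Figure D3:**
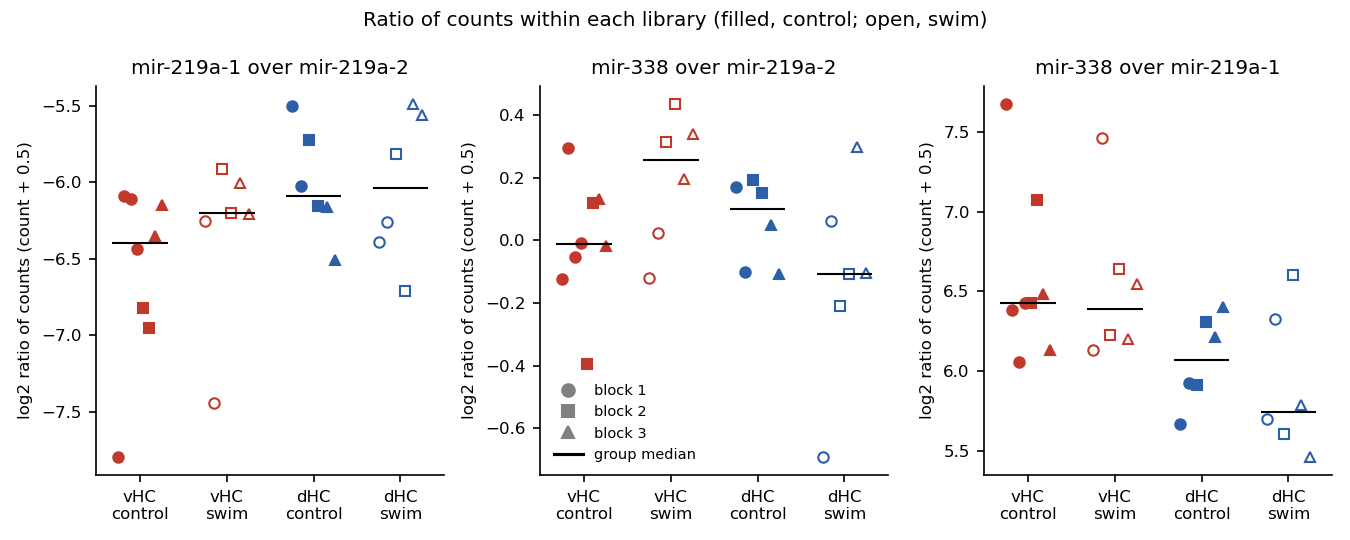
Log2 ratio of counts, each with 0.5 added, within each of the 26 libraries by group, for the 3 pairs of mmu-mir-219a-1, mmu-mir-219a-2 and mmu-mir-338, with shapes for blocks, filled points for control, open points for swim and a bar at the group median. The ratio of mmu-mir-338 over mmu-mir-219a-2 lies near 0 (1 to 1), while that of mmu-mir-219a-1 over mmu-mir-219a-2 has group means from -6.59 to -6.01.

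Over the 26 libraries the levels of the 3 miRNAs were correlated, and much of this followed region. For log2 normalized CPM, mmu-mir-219a-2 and mmu-mir-338 had Pearson's r = 0.77 and Spearman's rho = 0.83 (permutation p = 1e-05 for each, the smallest that the resampling can give, adjusted p = 3e-05 and 1.5e-05 over 3 pairs). For mmu-mir-219a-1 and mmu-mir-338, r was 0.71 (permutation p = 3e-05, adjusted p = 4.5e-05) and rho 0.75 (permutation p = 1e-05, adjusted p = 1.5e-05), and for both copies of miR-219a, r was 0.65 (permutation p = 0.00032, adjusted p = 0.00032) and rho 0.68 (permutation p = 0.00022, adjusted p = 0.00022). Without the 2 libraries farthest from the median of the first miRNA, r was 0.80, 0.72 and 0.71. All points share a scaling of the same kind.

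Within a region these relations did not pass the test. In the 14 vHC libraries r was 0.06 for both copies (rho 0.05), 0.38 for mmu-mir-219a-1 and mmu-mir-338 (rho 0.29) and 0.44 for mmu-mir-219a-2 and mmu-mir-338 (rho 0.42). In the 12 dHC libraries it was 0.31, 0.42 and 0.55 in the same order (rho 0.20, 0.33 and 0.55). The smallest adjusted permutation p of these 6 was 0.285 for r and 0.394 for rho. Without the 2 libraries farthest from the median of the first miRNA, r was 0.16, 0.37 and 0.61 in vHC, in the same order. In dHC it was then 0.17, 0.31 and 0.75, and these values were not tested. Within blocks, which hold both regions, r was 0.53 to 0.82 in the 9 cases. By r, only mmu-mir-219a-2 and mmu-mir-338 in block 1 passed (adjusted permutation p = 0.0054), and the others had adjusted p of 0.068 to 0.114. By rho, this pair in blocks 1 and 2, and mmu-mir-219a-1 with mmu-mir-338 in block 3, had an adjusted permutation p of 0.0461. After region, stress, interaction and block were removed, r was 0.01, 0.11 and 0.37.

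**Figure D4:**
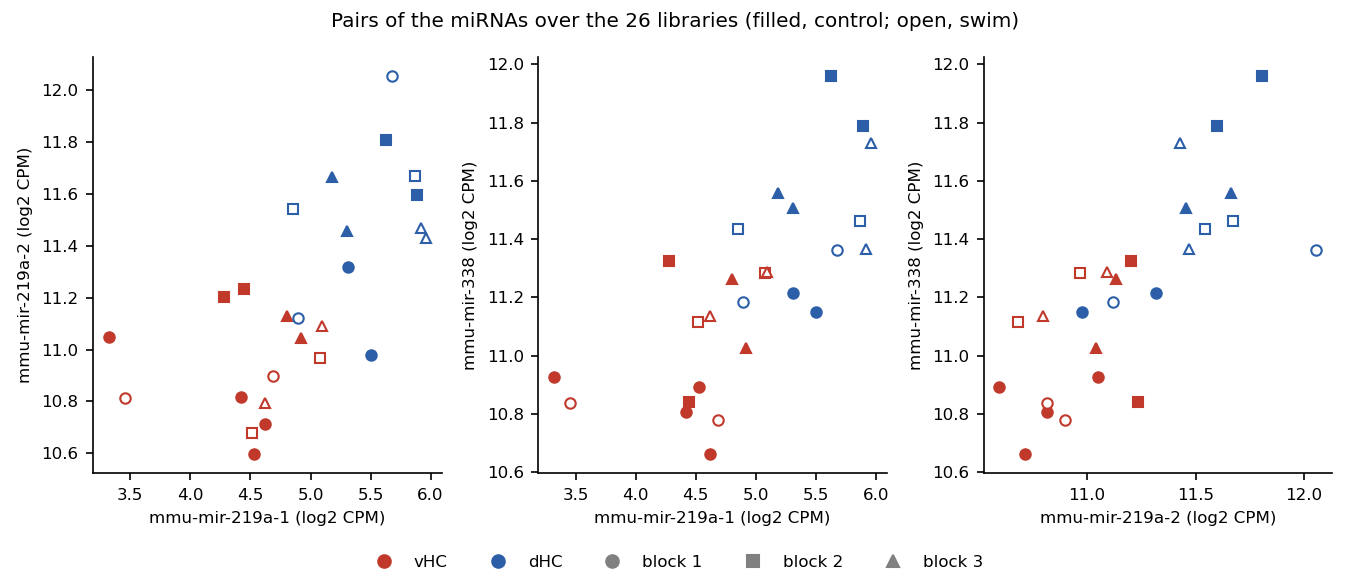
Log2 normalized CPM of each pair of mmu-mir-219a-1, mmu-mir-219a-2 and mmu-mir-338 in the 26 libraries, with colours for region, shapes for blocks, filled points for control and open points for swim. Libraries of dHC lie toward the upper right and those of vHC toward the lower left. Within each colour, over all its libraries, r is at most 0.55.

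The entries whose levels were most like those of each miRNA were chosen by r over the 26 libraries, given here as a description. For mmu-mir-219a-1 they were mmu-mir-34c (r = 0.86), mmu-mir-299a (0.85), mmu-mir-106b (0.81), mmu-mir-192 (0.80) and mmu-mir-344c (0.73). For mmu-mir-219a-2 they were mmu-mir-151 (0.87), mmu-mir-187 (0.80), mmu-mir-210 (0.79), mmu-mir-299a (0.75) and mmu-mir-5129 (0.74). For mmu-mir-338 they were mmu-mir-187 (0.85), mmu-mir-151 (0.82), mmu-mir-210 (0.79), mmu-mir-34c (0.78) and mmu-let-7i (0.74).

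Several of these also differed by region. In control mice mmu-mir-187 was higher in dHC by a log2 difference of 1.05 (SE 0.13, adjusted p = 3.06e-07, edgeR) and mmu-mir-34c by 1.03 (SE 0.21, adjusted p = 0.000432), whereas mmu-mir-151 had a difference of 0.17 (SE 0.081, adjusted p = 0.121). After region, stress, interaction and block were removed, the r of mmu-mir-151 with mmu-mir-219a-2 was 0.80, and that of mmu-mir-187 with mmu-mir-219a-2 was 0.06. These were the highest and lowest of the pairs listed above. With mmu-mir-338, r was then 0.44 for mmu-mir-187, 0.37 for mmu-mir-151 and 0.25 for mmu-mir-34c, and with mmu-mir-219a-1 it was 0.70 for mmu-mir-34c.

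Other miRNAs reported to act in the oligodendrocyte lineage did not all share the pattern of the 3. List A held 13 entries reported to favour precursor growth or oligodendrocyte differentiation, and all were tested. In control mice 3 were called higher and 3 lower in dHC, with a median log2 difference of 0.28, and after swim 2 were higher and 3 lower, with a median of 0.39. Of all entries tested, 14.7% were called lower in dHC in control mice and 12.7% after swim, beside the 7.78% and 7.56% called higher. The count of higher entries depended on the tool and scaling, and by DESeq2 it was 7 in both comparisons, with 3 lower in each. DESeq2 called 15.6% of all entries higher and 13.2% lower in control mice, and 9.5% higher and 13% lower after swim. Higher in control mice were mmu-mir-32 (0.95, SE 0.21), mmu-mir-18a (0.88, SE 0.24) and mmu-mir-19b-1 (0.55, SE 0.20), the last 2 of them from the mir-17 to mir-92a cluster known for promoting cell growth.

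After swim the entries of list A called higher were mmu-mir-17 (0.56, SE 0.20) and mmu-mir-92a-1 (0.48, SE 0.12), of the same cluster. The entries called lower in dHC were mmu-mir-184 (-2.37 in control mice and -1.69 after swim), mmu-mir-7a-1 (-0.63 and -0.56) and mmu-mir-7a-2 (-0.70 and -0.61), of which the last 2 are copies of 1 miRNA. List B held 9 entries reported to restrain differentiation, among them the 3 copies of mir-9, and 0 were called in either region comparison by edgeR, with 1 in control mice and 2 after swim at an unadjusted p under 0.05. DESeq2 called 1 entry of list B higher in control mice and 0 after swim, and edgeR also called 1 in control mice with DESeq2 size factors, with TMMwsp or with library sizes over the whole table. In control mice these settings called 72, 66, 63 and 32 of all 463 entries higher. The median difference of list B was 0.01 in control mice and -0.03 after swim. For stress, 0 entries of either list were called by edgeR or DESeq2. An unadjusted p under 0.05 was reached by 1 entry of list A in vHC by edgeR, and by DESeq2 by 1 entry of list A in each region and 1 entry of list B in vHC.

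**Figure D5:**
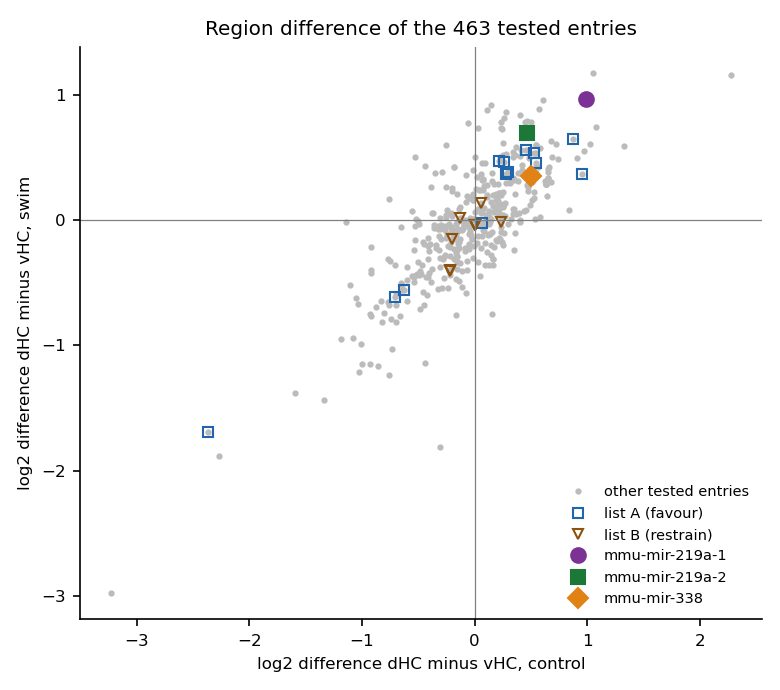
Log2 difference of dHC minus vHC in control mice (horizontal) and after swim (vertical) for the 463 tested entries, with list A, list B and mmu-mir-219a-1, mmu-mir-219a-2 and mmu-mir-338 marked. The 3 lie at the upper right, list B reaches from -0.22 to 0.23 on the horizontal and from -0.40 to 0.14 on the vertical axis, and list A from -2.37 to 0.95 on the horizontal axis.

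Marker miRNAs of other cells also differed between regions in part. Of the 8 entries for choroid plexus and ciliated cells, 5 were called higher and 3 lower in dHC in control mice, and 2 higher and 3 lower after swim, where 7.78% of all entries were called higher and 14.7% lower in control mice, and 7.56% higher and 12.7% lower after swim. The higher ones in control mice were mmu-mir-34b, mmu-mir-34c, mmu-mir-449a, mmu-mir-204 and mmu-mir-211, by 0.55 to 1.03, and the lower ones were mmu-mir-200a, mmu-mir-200b and mmu-mir-429, known from epithelial cells, with differences of -1.003 to -1.60. The count of higher calls among the 8 depended on tool and scaling, while that of lower calls stayed at 3. In control mice, 4 were higher by DESeq2 or by edgeR with library sizes over the whole table. After swim, 3 were higher by DESeq2 or by edgeR with DESeq2 size factors or TMMwsp, and 1 with library sizes over the whole table. Of all 463 entries, these settings called 72 and 32 higher in control mice, in the order given. After swim they called 44, 40, 41 and 28 higher. The summed level of the 8 was 2600 to 3682 CPM in control vHC and 3204 to 6234 in control dHC, and 2852 to 3695 in swim vHC and 2693 to 4820 in swim dHC.

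Of the 4 red blood cell entries, 2 were called lower in dHC in control mice and 1 after swim, beside the 14.7% and 12.7% of all entries. The call after swim was lost by DESeq2, and by edgeR with DESeq2 size factors, with TMMwsp or with library sizes over the whole table. Their summed level was 781 to 998 CPM in control vHC, 645 to 951 in control dHC, 749 to 903 in swim vHC and 659 to 884 in swim dHC. The 7 neuronal entries had 0 calls in control mice by edgeR, with 1 at an unadjusted p under 0.05. DESeq2 called 3 higher in control mice, beside 15.6% of all entries. After swim edgeR called mmu-mir-129-1 and mmu-mir-129-2 higher in dHC, beside 7.56% of all entries. With library sizes over the whole table, edgeR called 2 neuronal entries lower in control mice, and 2 higher and 2 lower after swim. That setting called 32 of all 463 entries higher and 57 lower in control mice, and 28 higher and 51 lower after swim. Summed levels of the neuronal entries were 81415 to 101599 CPM in control vHC, 77998 to 119291 in control dHC, 83087 to 93823 in swim vHC and 76533 to 116571 in swim dHC. For the 5 immune, 1 tested endothelial and 2 mural entries there were 0 calls by edgeR in either region comparison, with 1 immune entry at an unadjusted p under 0.05 in control mice. DESeq2, and edgeR with DESeq2 size factors or with TMMwsp, called 1 immune entry higher in dHC in control mice. These settings called 72, 66 and 63 of all 463 entries higher. No entry of these lists was at 0 in every library. The part of these cells in the region differences of mmu-mir-219a-1, mmu-mir-219a-2 and mmu-mir-338 was not tested.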

How the data were processed

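Groups, regions and blocks were taken from the labels, and the table had 0 columns without a sample. Per the methods, adapters were removed with cutadapt, reads identical in sequence and molecular tag were merged, and small RNAs were quantified with Sports 1.0. The values the authors deposited are expected counts per entry, not normalized, and were rounded before edgeR. Positions are those of GENCODE vM21, and GRCm38 is the build in the submitters' processing notes. The table holds no coordinates.

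Entries were filtered with filterByExpr (minimum count 10, minimum total 15), scaled by TMM over miRNA counts and tested in R 4.3.3 with edgeR 4.0.16 on all 26 libraries, with Benjamini-Hochberg adjustment over 463 entries and a threshold of 0.05. Stress tests held 2 surrogate variables (sva 3.50.0, null model of region), after the study's methods. Region tests held block, because a surrogate variable followed region in an earlier analysis. DESeq2 1.42.0 was an alternative. Ratios and correlations were tested in Python 3.11.15, with 100000 resamples where groups were large. The edgeR fits were tested on simulated data. The 3 miRNAs, the lists and the tests were chosen with earlier results of these data known. The miRNAs named were the 3, their opposite-strand partners, the 5 most alike by r for each, and the called entries of lists A and B. Called entries of the marker lists for other cells, and 3 of the most alike whose values are given in full, were chosen after their values were seen. Alternatives are in the closing section. Intervals give the uncertainty of a log2 difference, estimated from the spread between libraries. Other RNA classes were not analysed here.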

Additional observations from a re-analysis of the deposited data

Results flagged for a closer look

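In swim vHC library 15, the log2 ratio of mmu-mir-219a-1 over mmu-mir-219a-2 was -7.44, far from the other 5 libraries of its group, which lay between -6.25 and -5.92. The region difference of this ratio after swim, 0.30 on the log2 scale, was 0.077 without it. This library had 26 counts of mmu-mir-219a-1 and 4604 of mmu-mir-219a-2. Of 24 groups of values looked at in this way, 1 stood out, and chance flags about 1 in 20 groups.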

How the results depend on the processing

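Apart from 2 surrogate variables, all alternatives kept the 3 region differences above 0 in both comparisons, left-out libraries included. All were called except mmu-mir-338 after swim, with a log2 difference of 0.33 (adjusted p = 0.116) without the filter on low counts and 0.35 (adjusted p = 0.119) with neither block nor surrogate variables. With 2 surrogate variables in place of block, none of the 3 was called: the differences in control mice were -0.83 for mmu-mir-219a-1, 0.28 for mmu-mir-219a-2 and 0.25 for mmu-mir-338, and after swim -0.81, 0.46 and 0.011. When these variables were estimated with the intercept alone as null model, an alternative chosen after seeing the data, all 3 were called, with differences of 0.38 to 1.05. The cause was not tested.

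In control mice 36 entries were called higher and 68 lower in dHC. This split was 66 and 64 with DESeq2 size factors, 63 and 64 with TMMwsp, and 72 and 61 by DESeq2. With neither block nor surrogate variables, 67 entries were called in control mice in place of 104, and 56 after swim in place of 94. With surrogate variables 59 were called after swim.

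Within single blocks, the region difference in control mice was 1.40 in block 2 and 0.38 in block 3 for mmu-mir-219a-1, and 0.79 in block 2 for mmu-mir-338. The stress difference in vHC was -0.15, 0.44 and -0.0074 in blocks 1, 2 and 3 for mmu-mir-219a-1, and -0.39 in block 2 for mmu-mir-219a-2. In dHC it was -0.40 in block 2 and 0.69 in block 3 for mmu-mir-219a-1, 0.44 in block 1 for mmu-mir-219a-2 and -0.43 in block 2 for mmu-mir-338.

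No stress test of the 3 was called under any alternative run. The interaction of mmu-mir-219a-1, 0.02, was -0.040 with DESeq2 size factors, -0.048 with TMMwsp, -0.044 by DESeq2, -0.018 with block in place of surrogate variables and -0.056 without them. With 1 library left out, it was -0.14 to 0.12, and that of mmu-mir-219a-2 was -0.0057 to 0.23. Likewise, the stress difference of mmu-mir-219a-1 was -0.065 to 0.19 in vHC and -0.052 to 0.13 in dHC, that of mmu-mir-219a-2 in dHC was -0.080 to 0.12, the stress difference in dHC of the log2 ratio of mmu-mir-219a-1 over mmu-mir-219a-2 was -0.14 to 0.11, and that in vHC of mmu-mir-338 over mmu-mir-219a-1 was -0.23 to 0.11.

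The adjusted p of block was 0.0470, 0.0435 and 0.0274 for mmu-mir-219a-1 and 0.0312, 0.0451 and 0.0291 for mmu-mir-219a-2, with DESeq2 size factors, with TMMwsp and by DESeq2. The other alternatives on all libraries did not pass, with values up to 0.256 and 0.243 by edgeR. With 1 library left out, the adjusted p of block was 0.0366 to 0.258 and 0.00328 to 0.205, with the lowest values when library 32 (dHC, control) or library 6 (dHC, swim) was left out. After region, stress, interaction and block were removed, r was 0.010 for both copies, 0.11 for mmu-mir-219a-1 and mmu-mir-338 and 0.37 for mmu-mir-219a-2 and mmu-mir-338, none past the threshold. The 16 to 331.5 counts of mmu-mir-219a-1 per library limit its precision. The regions share no library number, so no replicate block was fitted. With consecutive library numbers as pairs, chosen after seeing the data, no call of the 3 or of the ratios changed. After block was removed, the deviations of paired libraries had r over 0.1 in 4 of 12 pairs (-0.48 to 0.35 over all), and 4 of 24 libraries were most like their own partner in the other region and same condition.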
